A study of Homo sapiens with 8 samples.

Results

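The SR proteins are splicing factors that carry an RNA recognition domain and a tail rich in arginine and serine repeats. The 10 SR genes described here, SRSF1, SRSF2, SRSF3, SRSF4, SRSF5, SRSF6, SRSF7, SRSF9, SRSF10 and SRSF11, were taken by name from a table of 13471 genes, and all 10 had a row in it. They were measured by immunoprecipitation (IP) of hnRNP U, also known as SAF-A, an abundant nuclear protein that binds RNA and chromatin, followed by RNA sequencing. The cells were hTERT-RPE1, a single human line of retinal pigment epithelium (RPE) origin kept growing by telomerase, with no genetic change listed beside that of the line itself.

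Each of 4 groups had 2 libraries: interphase without IP, interphase with the anti-hnRNP U IP, mitosis without IP and mitosis with the IP. Interphase cells were held for 24 h in 2 mM thymidine, which stops DNA synthesis, so this group is a thymidine-arrested population rather than cycling cells. Mitotic cells had the same thymidine block, a release of 6 h and an overnight arrest in S-trityl-L-cysteine (STLC), which blocks the kinesin Eg5. No IP with another antibody enters these comparisons, and RNA held by hnRNP U therefore cannot be told apart from RNA carried along by the beads. The labels do not say whether the replicates were separate cultures, so the p-values measure only the spread between these libraries.

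SR proteins bind exonic enhancers and recruit the spliceosome, several of them travel with the mRNA to the cytoplasm, and their tails are phosphorylated by SRPK and CLK kinases. Many SR genes control their own level: the protein promotes inclusion of a so-called poison exon, or retention of an intron, in its own transcript. A poison exon brings in a premature stop codon, and the transcript is then kept in the nucleus or destroyed by nonsense-mediated decay (NMD). For this reason SR genes give rise to both exported mRNA and nuclear transcripts. The values here are one per gene, summed over all its transcripts, and do not separate the isoforms.

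GENCODE release 29 (GRCh38, the assembly also named hg38) listed 107 transcripts for the 10 genes, of which 39 were protein-coding, 28 carried a retained intron and 22 were marked as NMD targets. All 10 genes had at least 1 NMD transcript and 8 had a retained-intron transcript, SRSF6 and SRSF11 being without one. In 5 genes an NMD transcript held an internal exon that is absent from the principal transcripts and contains the premature stop. These exons measured 456 nt in SRSF3, 449 nt in SRSF7, 268 nt in SRSF6, 195 nt in SRSF4 and 117 nt in SRSF11. Their first bases are shown, from the start of the exon to the premature stop, because this class of exon is a known basis of SR gene self-regulation. The gene-level values below do not measure it. The sequences are from the GENCODE transcripts, 5′ to 3′, in lower case with the stop codon in capitals.
SRSF3 (chr6:36599821-36599854, + strand, transcript SRSF3-203): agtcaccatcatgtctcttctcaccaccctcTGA
SRSF7 (chr2:38749319-38749346, - strand, transcript SRSF7-204): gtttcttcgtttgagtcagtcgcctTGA
SRSF6 (chr20:43459153-43459304, + strand, transcript SRSF6-202): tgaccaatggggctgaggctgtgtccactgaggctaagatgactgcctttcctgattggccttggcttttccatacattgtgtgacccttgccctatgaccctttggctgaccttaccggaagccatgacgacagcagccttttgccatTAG
SRSF4 (chr1:29160018-29160058, - strand, transcript SRSF4-204): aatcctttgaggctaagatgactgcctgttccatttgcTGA
SRSF11 (chr1:70231859-70231908, + strand, transcript SRSF11-212): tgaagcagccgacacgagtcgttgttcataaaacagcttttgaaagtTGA
The stop codon was TGA in 4 of the 5 exons and TAG in SRSF6. The coding part ahead of the stop was short in SRSF7 (28 bases with the stop) and SRSF3 (34 bases), and longest in SRSF6 (152 bases).

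Replicates of a group correlated at Pearson's r of 0.989 to 0.995 across genes on the log2 scale. Depth could only be estimated relative to the first interphase library without IP, from the most common step of the lowest values, and ran from 0.639 to 1.19. In the other libraries 40 to 115 genes lay on that step, among 1076 to 1304 genes with low values, so the estimate is rough. The 10 most abundant genes took 58.4% to 63.0% of the FPKM sum without IP and 12.4% to 20.6% in the IP. FPKM are fragment numbers scaled to transcript length and library size. HNRNPU mRNA, which encodes the precipitated protein, was present in all 8 libraries at 31.7 to 59.5 FPKM. Of 9 RPE markers listed, 5 had a row: KRT8 and KRT18 ranged from 18.5 to 79.2 FPKM, OTX2 and MITF from 3.33 to 33.2, and the pigment gene PMEL did not exceed 0.144. RPE65, RLBP1, BEST1 and TYRP1, the other RPE markers listed, had no row in the gene table, so their level is not known here. Of 3 markers of other cell types, PTPRC, PECAM1 and COL1A1, 1 had a row. This was the fibroblast gene COL1A1, which did not exceed 1.44 FPKM. The mitotic genes CCNB1, CDC20, PLK1 and CENPF were each higher in both mitotic libraries without IP than in both interphase ones.

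Without IP in interphase, the SR genes spanned 12.1 to 187 FPKM. SRSF9 was highest, at 187 ± 23.7 FPKM (mean ± SD, n = 2, as for all means below). SRSF1 (83.3 ± 2.67), SRSF3 (76.2 ± 5.14) and SRSF2 (72.5 ± 2.18) followed, then SRSF5 (43.1 ± 2.69), SRSF7 (40.8 ± 2.42), SRSF6 (28.3 ± 1.94), SRSF11 (23.9 ± 2.27), SRSF10 (15.8 ± 1.39) and SRSF4 (12.1 ± 0.754). The replicate values of SRSF3 and SRSF2 overlapped, as did those of SRSF5 and SRSF7, and the other neighbours in this order did not. In the interphase IP the order changed: SRSF1 was first at 136 ± 3.57 FPKM and SRSF9 came after SRSF3 at 66.6 ± 10.5, overlapping SRSF2. In mitosis SRSF9 was again first without IP (153 ± 18.8), whereas SRSF3 was first in the IP (162 ± 4.09). SRSF4 was last in all 4 groups, although in mitosis without IP its values overlapped those of SRSF10.

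**Figure D1:**
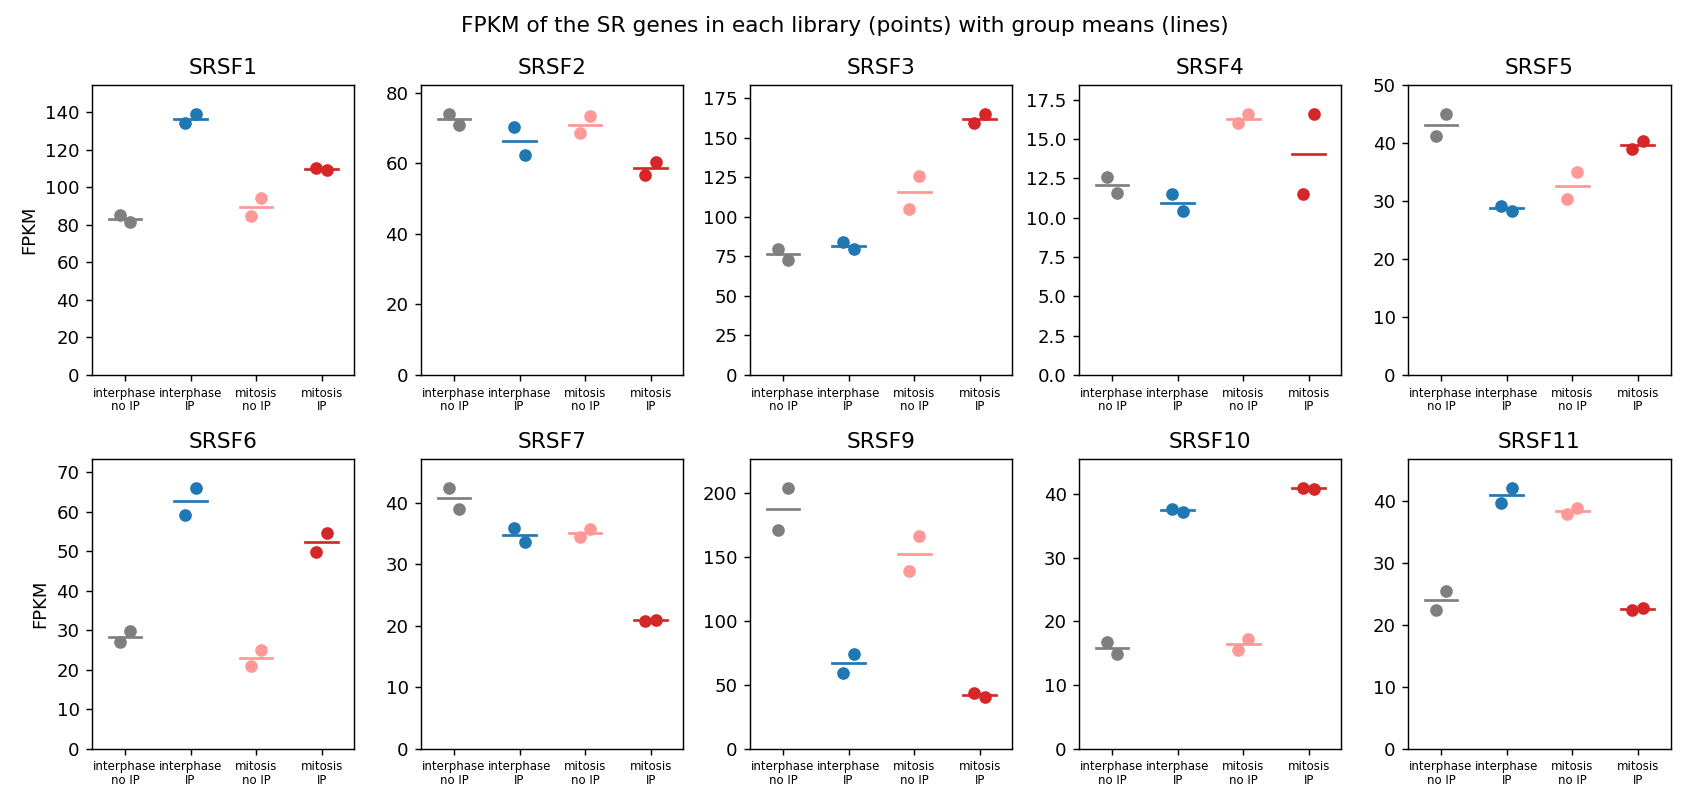
FPKM of each SR gene (y axis, from 0, a scale of its own per gene) in the 4 groups (x axis), with a point per library and a line at the group mean. SRSF6 and SRSF10 are higher and SRSF9 is lower in the IP in both phases, and SRSF11 has means of 23.9 without IP and 40.9 with it in interphase, and of 38.3 and 22.6 in mitosis.

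The IP was compared with the libraries without IP to ask which SR transcripts were enriched with hnRNP U. In interphase 4 of the 10 SR genes rose in the IP, SRSF10, SRSF6, SRSF11 and SRSF1, 2 fell, SRSF9 and SRSF5, and 4 did not pass the test, SRSF2, SRSF3, SRSF4 and SRSF7. Over all genes, limma called 37.6% higher and 37% lower at an adjusted p below 0.05, so the SR counts are near the background. The SR median log2 fold change was -0.01, beside 0.02 over all genes. In mitosis 5 SR genes rose (SRSF10, SRSF6, SRSF3, SRSF1 and SRSF5), 3 fell (SRSF9, SRSF11 and SRSF7) and 2 did not pass (SRSF2 and SRSF4). Here 32.8% of all genes were called higher and 31.7% lower, and the SR median was 0.03 beside 0.01 over all genes. On the values as deposited the family therefore had no common direction in either phase. The SR medians changed sign with the scaling. They were 0.11 in interphase and 0.12 in mitosis with each library centred on its median, which also raised the all-gene median in interphase. After quantile normalization they were 0.10 and -0.09. With trends of transcript length and GC content removed, both SR medians were negative and below those of all genes, as given below. More SR genes were then called lower than higher in each phase, by the longest or the principal transcripts.

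**Figure D2:**
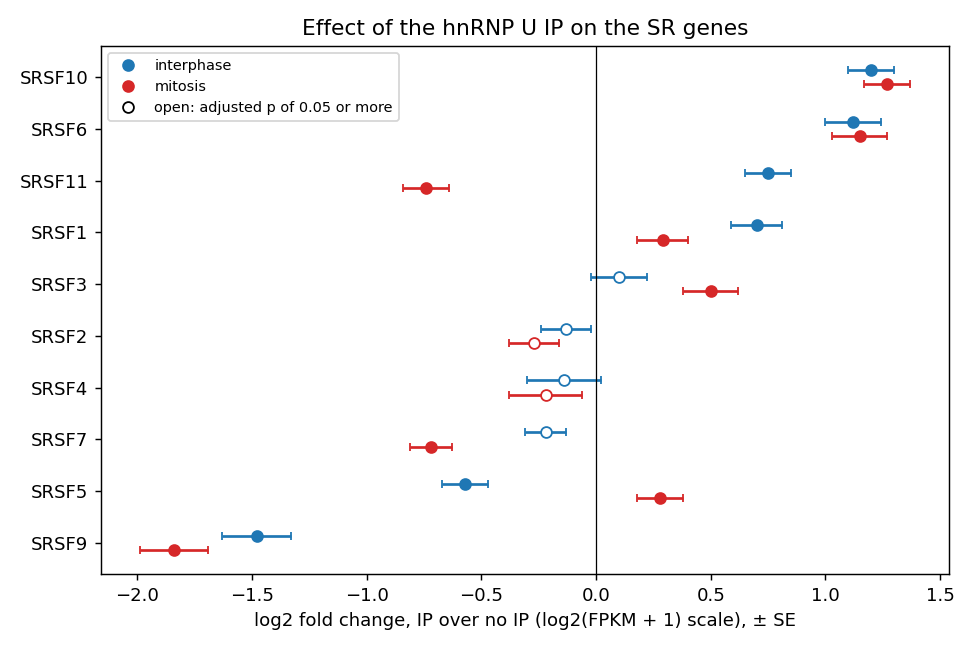
Log2 fold change of IP over no IP (x axis, log2(FPKM + 1) scale) for each SR gene (y axis, ordered by the interphase value), with SE bars, interphase in blue and mitosis in red, and open points for an adjusted p of 0.05 or more. SRSF10 and SRSF6 lie to the right in both phases, SRSF9 lies to the left in both, and SRSF11 and SRSF5 change side.

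On the values as deposited, SRSF6 and SRSF10 had the highest IP enrichment of the family in both phases. SRSF6, also called SRp55, belongs with SRSF4 and SRSF5 to the members with a pair of RNA recognition domains and a long tail. Without IP the gene (chromosome 20, 43457928 to 43464247, plus strand, GRCh38 here and below) had FPKM values of 26.9 and 29.7 in interphase and of 21.0 and 25.1 in mitosis. In the IP they were 59.2 and 66.1, then 49.9 and 54.6, so that the IP values lay above those without IP in each phase. By limma the interphase log2 fold change was 1.12 (SE 0.12, adjusted p 3.01e-05) and the mitotic one 1.15 (SE 0.12, adjusted p 5.02e-05). With trends of transcript length and GC content removed, the interphase value shrank to 0.25 (adjusted p 0.0659) and the mitotic value to 0.63. By the principal transcripts they were 0.13 (adjusted p 0.311) and 0.58. The highest interphase value of the family was then that of SRSF1, at 1.41.

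SRSF10 (chromosome 1, 23964804 to 23980927, minus strand), also called SRp38, represses splicing when it is dephosphorylated, as in mitosis and heat shock. It was one of the least abundant SR genes without IP, with 16.8 and 14.8 FPKM in interphase and 15.5 and 17.3 in mitosis. The IP libraries had 37.7 and 37.2 FPKM in interphase and 41.0 and 40.8 in mitosis, with no overlap. The log2 fold change was 1.20 (SE 0.10, limma adjusted p 7.18e-06) in interphase and 1.27 (SE 0.10, limma adjusted p 1.45e-05) in mitosis, higher than 87.7% and 93.9% of all genes. With the length and GC trends removed it was 0.40 and 0.77. It was 1.36 and 1.09 when principal transcripts, for the genes that had one, were used for those trends.

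SRSF9 went the other way. SRSF9 (chromosome 12, 120461668 to 120469793, minus strand), or SRp30c, is a short SR protein related to SRSF1 and with a reduced tail. Its 2 libraries without IP held 171 and 204 FPKM in interphase and 139 and 166 in mitosis. The IP libraries held 59.2 and 74.0 in interphase and 43.4 and 40.1 in mitosis, below every library without IP. The log2 fold change was -1.48 (SE 0.15, limma adjusted p 2.47e-05) in interphase and -1.84 (SE 0.15, limma adjusted p 1.81e-05) in mitosis, where only 1.94% of all genes had a lower value. The authors' deposited table gave ratios of IP to total RNA of 0.347 and 0.363 in interphase and 0.312 and 0.242 in mitosis. SRSF9 shares its file interval with GATC, a gene on the opposite strand that overlaps it, and whose FPKM were between 13.8 and 35.2 and higher in each IP library than in each library without IP. Whether fragments of the overlap were assigned by strand is not given in the sources used here, and the part of GATC in the SRSF9 values was not tested. With the length and GC trends of the longest transcripts removed, SRSF9 was -1.35 (limma adjusted p 3.65e-05) in interphase and -2.06 (adjusted p 8e-06) in mitosis. With the trends of the principal transcripts removed, the interphase value was -0.29 (limma adjusted p 0.116) and the mitotic value was -1.43.

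SRSF1 (chromosome 17, 58003360 to 58007346, minus strand), or ASF/SF2, the founding SR protein and a shuttling factor with roles in splicing, export and translation, rose in the IP. Interphase libraries had 85.2 and 81.4 FPKM without IP and 134 and 139 in the IP. The mitotic ones had 84.4 and 94.0 without IP and 110 and 109 in the IP, again without overlap. Its log2 fold change reached 0.70 (SE 0.11, limma adjusted p 0.000307) in interphase and 0.29 (SE 0.11, limma adjusted p 0.0391) in mitosis. The mitotic call was lost on leaving out any one library other than the interphase IP libraries, with limma adjusted p from 0.0553 to 0.233. It was also lost after quantile normalization (0.16, adjusted p 0.225), and with the longest-transcript trends removed the mitotic value was -0.11. By the principal transcripts the mitotic value was 0.45 (limma adjusted p 0.00372), which passed. SRSF1 overlaps the annotated protein-coding gene AC015813.2, and the part of that gene in the SRSF1 values was not tested.

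SRSF11 and SRSF5 changed direction between phases. SRSF11 (chromosome 1, 70205682 to 70253052, plus strand), or p54, is a divergent SR protein that contacts the 3′ splice site machinery. Its FPKM rose with the IP in interphase, from 22.3 and 25.5 to 39.6 and 42.1. In mitosis they fell from 37.9 and 38.8 to 22.4 and 22.7. SRSF11 thus had a log2 fold change of 0.75 (SE 0.10, limma adjusted p 0.000111) in interphase and -0.74 (SE 0.10, limma adjusted p 0.000191) in mitosis. Removal of the length and GC trends left the mitotic fall at -1.37 and took the interphase value to -0.21 (limma adjusted p 0.0897).

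SRSF5 (chromosome 14, 69726900 to 69772005, plus strand), or SRp40, is a member close to SRSF4 and SRSF6. Interphase libraries had 41.2 and 45.0 FPKM without IP and 29.1 and 28.3 in the IP. Mitotic libraries had 30.3 and 35.0 without IP and 39.0 and 40.4 in the IP. Its log2 fold change was -0.57 (SE 0.10, limma adjusted p 0.000903) in interphase and 0.28 (SE 0.10, limma adjusted p 0.043) in mitosis. The mitotic rise was lost after quantile normalization (0.07, adjusted p 0.572) and on leaving out either mitotic IP library, either interphase library without IP, or mitosis without IP replicate 1, with adjusted p from 0.0598 to 0.272. With the longest-transcript trends removed it was -0.16 and the interphase value was -1.10. By the principal transcripts they were 0.23 (adjusted p 0.0816) and -0.55.

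SRSF3 and SRSF7 are small shuttling SR proteins that hand mRNA to the export receptor NXF1, SRSF7 with an added zinc knuckle. SRSF3 (chromosome 6, 36594353 to 36605600, plus strand) had 79.8 and 72.6 FPKM without IP and 83.8 and 79.6 in the interphase IP, and these groups overlapped. The mitotic libraries had 105 and 126 without IP and 159 and 165 in the IP. Its log2 fold change was 0.10 in interphase (95% interval -0.18 to 0.38, limma adjusted p 0.485) and 0.50 in mitosis (SE 0.12, limma adjusted p 0.00703). Without the first mitotic library lacking IP, the mitotic value was 0.37 with an adjusted p of 0.0693. With the length and GC trends removed, SRSF3 was -0.77 in interphase (adjusted p 0.00042) and -0.04 in mitosis.

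SRSF7 (chromosome 2, 38743599 to 38751494, minus strand) had 42.5 and 39.1 FPKM without IP and 36.0 and 33.7 with it in interphase. The mitotic values were 34.4 and 35.8 without IP and 20.8 and 21.0 in the IP. The mitotic fall of 0.72 on the log2 scale passed the test (SE 0.09, limma adjusted p 0.000163), and the interphase log2 fold change of -0.22 missed it (limma adjusted p 0.0553, and 0.0428 after quantile normalization). The interphase value passed with the length and GC trends removed, at -0.62 (adjusted p 0.00046) by the longest and -0.70 (adjusted p 0.000252) by the principal transcripts, and the mitotic value was -1.10 and -1.16. The IP values lay below those without IP in both phases.

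SRSF2 and SRSF4 passed in neither phase on the values as deposited. SRSF2 (chromosome 17, 76734115 to 76737374, minus strand), or SC35, is a protein found in nuclear speckles. It had 74.0 and 70.9 FPKM without IP and 70.3 and 62.3 in the IP in interphase, then 68.5 and 73.4 and 56.7 and 60.5 in mitosis. Its log2 fold change was -0.13 in interphase (95% interval -0.37 to 0.11) and -0.27 in mitosis (95% interval -0.51 to -0.03, limma adjusted p 0.0501). The mitotic value passed without the variance trend (adjusted p 0.0474), after quantile normalization (-0.49, adjusted p 0.0062) and without either interphase IP library (adjusted p 0.0355 and 0.036). It also passed with the length and GC trends removed (-0.43, adjusted p 0.00586, and -0.51 with 0.00222 by the principal transcripts), as did the interphase value by the principal transcripts (-0.43, adjusted p 0.00639). SRSF2 overlaps MFSD11 on the opposite strand, which had 3.99 to 8.05 FPKM, and SRSF8, an expressed near copy of SRSF2, had 3.60 to 11.3, so reads of either may be mixed in. The annotated protein-coding gene AC005837.2 overlaps SRSF2 as well, and its part in the SRSF2 values was not tested.

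SRSF4 (chromosome 1, 29147743 to 29181987, minus strand), or SRp75, the member with the longest tail, had 12.6 and 11.6 FPKM without IP and 11.5 and 10.4 with it in interphase. The mitotic values were 16.0 and 16.6 without IP and 11.5 and 16.6 in the IP, so the mitotic IP replicates differed by more than the group means did. Its log2 fold change was -0.14 (95% interval -0.49 to 0.22) in interphase and -0.22 (95% interval -0.58 to 0.14) in mitosis. The mitotic value rested on which IP library was kept: it was -0.47 (limma adjusted p 0.0162) without mitotic IP replicate 2 and 0.03 (adjusted p 0.877) without replicate 1. The longest transcript of SRSF4 has 8128 nt and its principal transcript 2387 nt, and the interphase value with length and GC trends removed was -1.25 (adjusted p 0.000133) with the former and 0.39 (adjusted p 0.0489) with the latter. The mitotic value was then -0.77 (adjusted p 0.00216) and -0.04 (adjusted p 0.832).

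Whether the IP effect differed between phases was tested directly as an interaction. The signed log2 fold change was lower in mitosis for SRSF11, where a rise turned into a fall, and for SRSF7, where the fall was deeper. It was higher for SRSF5, where a fall turned into a rise, and 7 SR genes did not pass. Over all genes 27.2% had a higher and 19.9% a lower signed value in mitosis, so the share of SR genes called was no larger than the background. SRSF11 had a difference of -1.49 (SE 0.14, limma adjusted p 0.000103), and only 3.15% of all genes had a lower one. In pairs taken by replicate number, which the labels do not tie to a shared culture, it was -1.53 and -1.45. SRSF5 had a difference of 0.85 (SE 0.15, adjusted p 0.00179), with 0.84 and 0.85 in the pairs. SRSF7 had a difference of -0.50 (SE 0.13, adjusted p 0.0142), which was lost without interphase no-IP replicate 2 (adjusted p 0.0617) or mitosis no-IP replicate 2 (0.0518). For SRSF6 and SRSF10 the intervals of the difference were -0.35 to 0.42 and -0.25 to 0.40. SRSF1 (-0.41, adjusted p 0.0551, and -0.86 with 0.00216 after quantile normalization) and SRSF3 (0.39, adjusted p 0.0971) had differences that did not pass. SRSF3 passed with the length and GC trends removed (0.73, adjusted p 0.00724, and 0.81 with 0.00471 by the principal transcripts). SRSF9 had -0.36 (adjusted p 0.208), and -0.74 with 0.0159 after quantile normalization, -0.71 with 0.015 with the trends removed and -1.13 with 0.00283 by the principal transcripts. By the principal transcripts SRSF1 (-0.96, adjusted p 0.000973) and SRSF6 (0.45, adjusted p 0.0389) passed too.

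Mitosis was compared with interphase in the libraries without IP for changes of RNA level. FPKM are scaled to library size, so changes of RNA per cell, of the share of cells that hold it and of the other RNA cannot be told apart. Phase also cannot be separated from the release and the STLC arrest. SRSF11 and SRSF3 rose, SRSF5 fell, and 7 SR genes did not pass, beside 26.2% of all genes called higher and 25.5% lower. SRSF11 had 23.9 ± 2.27 FPKM in interphase and 38.3 ± 0.625 in mitosis, and its log2 fold change was 0.66 (SE 0.10, limma adjusted p 0.00076). SRSF3 went from 76.2 ± 5.14 to 115 ± 14.8, a log2 fold change of 0.59 (SE 0.12, adjusted p 0.00436). SRSF5 went from 43.1 ± 2.69 to 32.7 ± 3.34, a log2 fold change of -0.39 (SE 0.10, adjusted p 0.0125), which was lost without mitosis no-IP replicate 1 (adjusted p 0.102) or interphase no-IP replicate 2 (0.0896). SRSF4 had a log2 fold change of 0.40 (95% interval 0.04 to 0.76, adjusted p 0.0597) with no overlap between its groups, and passed without either mitotic IP library (adjusted p 0.0149 and 0.0152). SRSF6 had -0.29 (limma adjusted p 0.0739), and -0.41 without mitosis no-IP replicate 2. It passed after quantile normalization (-0.39, adjusted p 0.0246) and with the length and GC trends removed (-0.52, adjusted p 0.00349). By the principal transcripts it was -0.54 (adjusted p 0.0028). SRSF1, SRSF2 and SRSF10 had overlapping groups. With each library centred on its median, SRSF6 (-0.37, adjusted p 0.0377) and SRSF7 (-0.29, adjusted p 0.0287) also fell, giving 2 higher and 3 lower. SRSF7 passed too with the length and GC trends removed (-0.26, adjusted p 0.0497, and -0.27 with 0.0438 by the principal transcripts). By the principal transcripts SRSF1 (0.39, adjusted p 0.00997), SRSF4 (0.49, adjusted p 0.0221) and SRSF10 (0.26, adjusted p 0.0499) passed as well. The SRSF10 value was -0.16 by the longest transcripts.

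In the IP, mitosis differed from interphase in 6 SR genes. SRSF3 and SRSF5 rose and SRSF1, SRSF7, SRSF9 and SRSF11 fell, beside 35.8% of all genes called higher and 25.6% lower. SRSF3 had the largest rise, with 81.7 ± 2.99 FPKM in interphase and 162 ± 4.09 in mitosis and a log2 fold change of 0.98 (SE 0.12, limma adjusted p 0.000161). SRSF11 had the largest fall, from 40.9 ± 1.73 to 22.6 ± 0.183, a log2 fold change of -0.83 (SE 0.10, adjusted p 0.000111). SRSF7 fell by 0.71 (adjusted p 0.000204) and SRSF9 by 0.65 (adjusted p 0.00542) on that scale, and SRSF5 rose by 0.45 (adjusted p 0.00478, and 0.23 with 0.0997 after quantile normalization). SRSF1 had -0.31 (adjusted p 0.0326), which missed the threshold without either interphase no-IP library, either mitotic IP library or interphase IP replicate 2 (adjusted p 0.0582 to 0.0957). SRSF4 had 0.32 (adjusted p 0.11), and 0.56 with 0.00742 without mitotic IP replicate 1. Quantile normalization gave 1 higher and 6 lower, and median centring 2 higher and 6 lower. This comparison shares its libraries with the IP comparisons above and is no independent measurement.

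The SR transcripts are low in GC. The longest annotated transcript of each had a GC content between 36.6% (SRSF11) and 45.6% (SRSF2), below the median of 47.6% over all matched genes. Across 13119 genes the interphase IP effect fell with GC content (Spearman's rho -0.71) and rose with transcript length (rho 0.53). In mitosis the values over these genes were -0.56 and 0.28. Across the 10 SR genes they were -0.60 and 0.58 in interphase, and -0.43 and 0.54 in mitosis. For the difference of the IP effect between phases they were 0.42 with GC and -0.47 with length over the 13119 genes. Across the 10 SR genes those of the difference had the opposite signs, -0.26 and 0.31. These points share libraries and are given as a description. With both trends removed the SR median in interphase was -0.42, beside 0.07 over all genes, and in mitosis it was -0.30 beside 0.06. With the principal transcripts it was -0.27 beside 0.03 and -0.06 beside 0.05. SRSF1 depended most on this choice among the genes that rose, with an interphase value of 0.21 (limma adjusted p 0.0973) by its longest transcript of 3117 nt and 1.41 (adjusted p 6.43e-06) by its principal transcript of 1513 nt.

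**Figure D3:**
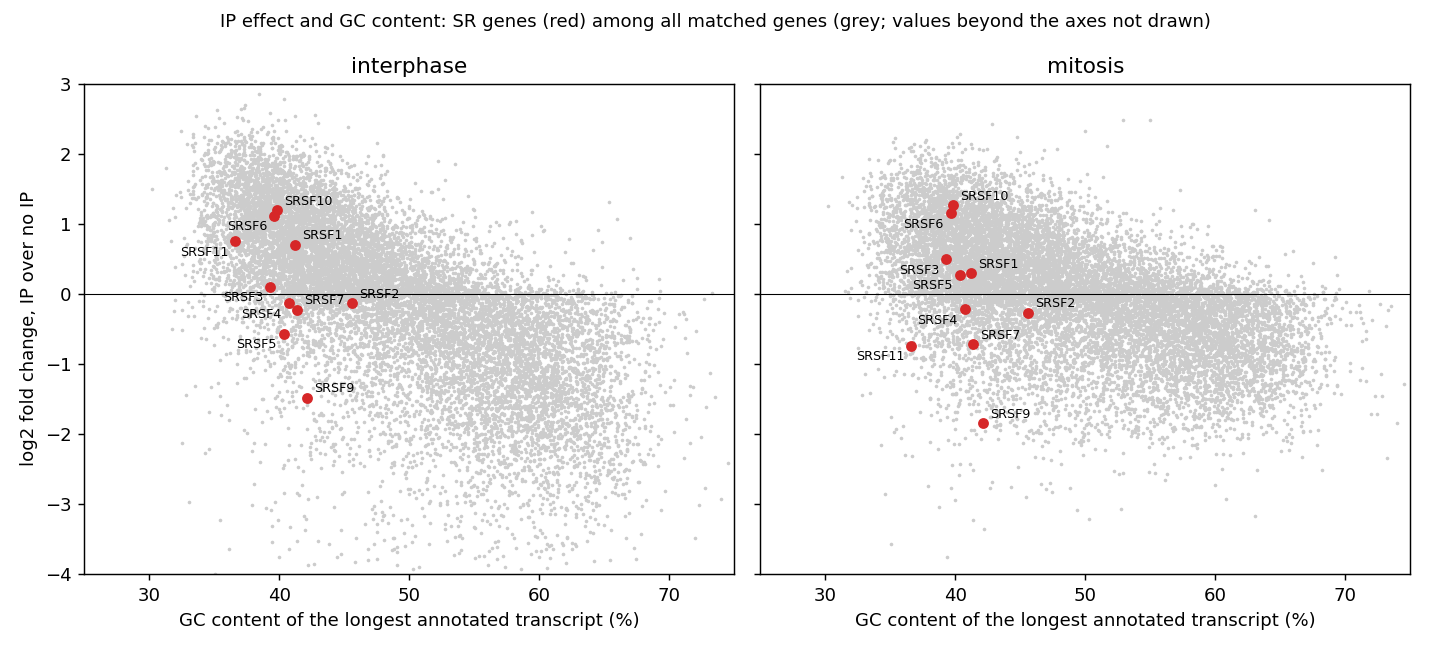
Log2 fold change of IP over no IP (y axis) against the GC content of the longest annotated transcript (x axis, %) in interphase (left) and mitosis (right), with all matched genes in grey and the SR genes in red. The SR genes sit at 36.6% to 45.6% GC, with SRSF10 at 1.20 and 1.27 at the top of the red points and SRSF9 at -1.48 and -1.84 at the bottom.

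Genes that act with the SR proteins were described for comparison. The values of these lists are on the scale as deposited. The alternatives given for the SR genes, with length and GC trends removed among them, are not given for these lists. Of 8 genes of SR kinases and nuclear import, 3 rose and 2 fell in the interphase IP, and 1 rose and 5 fell in the mitotic IP, with medians of 0.17 and -0.56. The shares over all genes were 37.6% higher and 37% lower in interphase and 32.8% and 31.7% in mitosis, and these hold for the lists that follow. SRPK1, the kinase that phosphorylates SR tails in the cytoplasm, was higher in the interphase IP by 0.91 (limma adjusted p 4.58e-05) and lower in the mitotic IP by a log2 fold change of -0.98 (adjusted p 5.44e-05). Its difference between phases, -1.89 (adjusted p 6.51e-05), was the lowest of this list and had the sign of that of SRSF11. SRPK2 had the highest interphase value (1.10) and CLK3, a nuclear SR kinase, the lowest in both phases (-1.15 and -1.09). TNPO3, the import receptor of SR proteins, had the highest value in mitosis, 0.57 (adjusted p 0.000502).

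Of 15 SR-related splicing proteins listed, 14 had a row. In the interphase IP 8 rose and 4 fell, and in the mitotic IP 5 rose and 6 fell, with medians of 0.40 and -0.06, beside the all-gene shares of 37.6% and 37%, then 32.8% and 31.7%. SREK1, an SR-related regulator, had the highest value in both phases (1.55 and 0.86). U2AF2, which binds the polypyrimidine tract, had the lowest in interphase (-1.82) and ACIN1, a component that joins the exon junction complex, the lowest in mitosis (-1.65). The difference between phases was lower for 6 of the 14 and higher for RNPS1 alone (1.51, limma adjusted p 0.000154), beside 19.9% lower and 27.2% higher over all genes. SRRM2, a scaffold of nuclear speckles, had the lowest difference, -2.14 (adjusted p 0.000255). Without IP, 9 of the 14 rose in mitosis and none fell, beside 26.2% and 25.5% over all genes, with a median of 0.78, SREK1 at 1.57 and SNRNP70 at -0.37 being the ends. The SR genes had a median of 0.01 in that comparison.

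Of 10 NMD factors, 6 rose and 3 fell in the interphase IP and 4 rose and 4 fell in the mitotic IP, with medians of 0.42 and -0.19, beside all-gene shares of 37.6% and 37%, then 32.8% and 31.7%. SMG1, the kinase of UPF1, was highest in both phases (1.55 and 1.12). SMG5 was lowest in interphase (-1.04) and UPF2 in mitosis (-1.56). UPF2 also had the lowest difference between phases (-1.99, limma adjusted p 5.48e-05), and SMG5 the highest (1.39, adjusted p 0.000295).

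**Figure D4:**
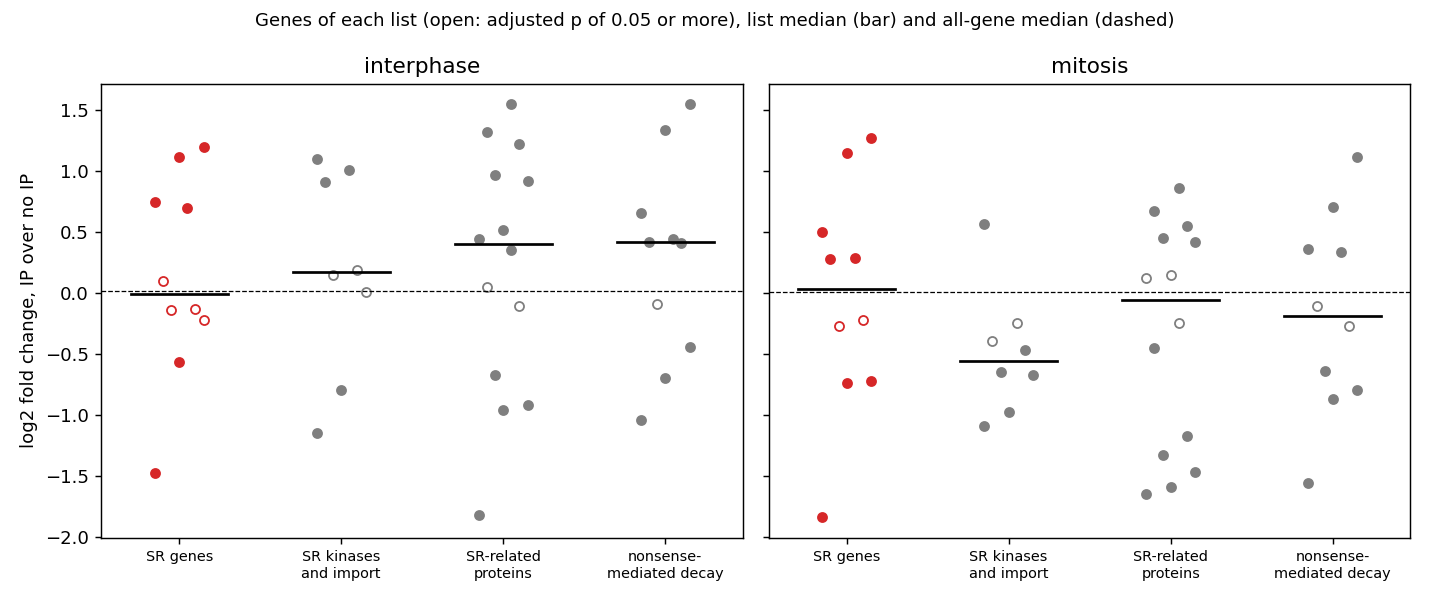
Log2 fold change of IP over no IP (y axis) for each gene of 4 lists (x axis) in interphase (left) and mitosis (right), with open points for an adjusted p of 0.05 or more, a bar at the list median and a dashed line at the all-gene median. The SR kinase and import genes have a median of 0.17 in interphase and -0.56 in mitosis, whereas the SR medians are -0.01 and 0.03.

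The SR genes went both ways, and their median profile over the 8 libraries is the profile of no single member. The genes closest to that median, by the root mean square difference between centred log2 values over the 8 libraries, were IMMT (0.07), LOC101927322 (0.08), CWC27 (0.08), LINC00672 (0.08) and SFR1 (0.09). LOC101927322 and LINC00672 lay near 0, at 0.052 to 0.369 and 0.0355 to 0.234 FPKM, where the added 1 flattens any change, while IMMT ranged from 10.5 to 15.1, CWC27 from 6.9 to 10.3 and SFR1 from 7.84 to 11.6. The SR genes themselves differed from their median profile by 0.19 (SRSF2) to 0.94 (SRSF9).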

How the data were processed

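The deposited gene table holds FPKM made by the authors, per the file headers, 1 column for each of the 8 libraries, and ratio columns by the authors, which matched quotients of their FPKM columns to within a relative difference of 4.1e-13. TopHat and StringTie, and the builds hg19 and hg38, are named in the submitters' processing notes without versions or roles. Libraries were directional and depleted of ribosomal RNA, per the labels' protocols. The handling of reads shared by genes or strands is not given in the sources used here. The table of unnamed lncRNA features was not used.

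Limma 3.58.1 in R 4.3.3 (lmFit, eBayes with trend, two-sided) was run on log2(FPKM + 1) over all 13471 genes with 4 group coefficients, all 8 libraries and 4 residual degrees of freedom. Benjamini-Hochberg adjustment ran over all genes of a comparison, with 0.05 as the threshold for a call. Fold changes on this scale are understated for genes near 1 FPKM. Total fragment numbers are unknown, so no counting interval is given. Transcript length and GC came from GENCODE release 29 for 97.4% of genes (12678 by symbol, 441 by older symbol in RefSeq). Alternatives were another pseudocount, a filter, scalings, no variance trend, length and GC trends removed (4 spline degrees of freedom each), a replicate block and each library left out. The trend removal by principal transcripts was chosen after seeing the data. A principal transcript was annotated for 12114 of the matched genes, and the others kept their longest transcript. All 10 SR genes are named, and of each other list the genes with the highest and lowest log2 fold change, besides SRPK1, the lowest for the difference between phases. The members and lists were chosen with earlier results of these data known.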

Additional observations from a re-analysis of the deposited data

Results flagged for a closer look

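The effect of the IP differed between interphase and mitosis in 3 SR genes by the limma interaction test. The log2 fold change of the IP in mitosis minus that in interphase was -1.49 for SRSF11, 0.85 for SRSF5 and -0.50 for SRSF7. With libraries paired by replicate number, both pairs changed sign between the phases in SRSF11 and SRSF5. In SRSF7 both pairs were negative in both phases and lower in mitosis. The labels do not say that a number marks a shared culture or day, so the pairs are a description. With the length and GC trends removed there was a single sign in both phases for SRSF11 (-0.21 and -1.37, or -0.25 and -1.36 by the principal transcripts) and for SRSF5 by the longest transcripts (-1.10 and -0.16), but not by the principal ones (-0.55 and 0.23). The differences between phases then stayed called, at -1.16 and -1.11 for SRSF11, 0.94 and 0.78 for SRSF5, and -0.48 and -0.46 for SRSF7. The SRSF7 difference was lost without interphase no-IP replicate 2 (adjusted p 0.0617) or mitosis no-IP replicate 2 (adjusted p 0.0518).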

How the results depend on the processing

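Over 50 member tests and 16 alternatives, 714 of 800 values kept their direction and side of the threshold or were uncalled before and after, 48 gained a call, 29 lost one and 9 changed sign with a call on either side. In 22 of the 714 the sign changed while neither value was called. All 9 came from removal of length and GC trends. By the longest transcripts they were SRSF3 (-0.77) and SRSF11 (-0.21) in the interphase IP and SRSF1 (-0.11), SRSF3 (-0.04) and SRSF5 (-0.16) in the mitotic IP. By the principal transcripts they were SRSF3 (-0.89), SRSF4 (0.39) and SRSF11 (-0.25) in interphase and SRSF3 (-0.08) in mitosis. The cause was not tested. The pseudocount of 0.1 changed no call of an SR gene.

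The number of SR genes whose IP effect differed between phases was 3, and 5 after quantile normalization, 5 with the trends removed and 7 by the principal transcripts. For mitosis against interphase without IP it was 3, and 5 with median centring, 5 with the trends removed and 8 by the principal transcripts. Higher and lower SR calls in the interphase IP were 4 and 2, and became 4 and 3 after quantile normalization, 1 and 5 with the trends removed and 3 and 4 by the principal transcripts. In the mitotic IP 5 and 3 became 3 and 4, 2 and 5, and 3 and 4. For mitosis in the IP 2 and 4 became 3 and 5 with the trends removed. Median centring moved the median of all genes from 0.02 to 0.14 in the interphase IP and from 0.08 to -0.03 for mitosis in the IP. On leaving out each library in turn, 6 SR genes were called in the interphase IP each time, 5 to 9 in the mitotic IP (5 without mitosis no-IP replicate 1), 2 to 3 for the difference, 2 to 4 without IP and 5 to 6 in the IP. The group left with a lone library is then assumed to vary like the others.

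The labels number the replicates 1 and 2 without saying that a number marks a shared culture or day, and deviations of same-numbered libraries correlated at 0.088 to 0.53 between groups. With the replicate block, 7 SR genes were called in the interphase IP, 9 in the mitotic IP, 4 for the difference, 4 for mitosis without IP and 7 for mitosis in the IP. The added calls with the block were SRSF7 (limma adjusted p 0.0496), SRSF2 (0.047), SRSF1 (0.0459), SRSF6 (0.0222) and SRSF6 (0.03), in that order, and no call was lost.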
